A study of Mus musculus with 12 samples.

Results

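The genes described here are those of the integrated stress response and of its target group, the cytosolic aminoacyl-tRNA synthetases. They are a named list of 32 genes among the 55471 in the deposited count tables. The list was chosen by function, with earlier results of these data known. All 32 genes had enough reads to be tested. By role they are 5 transcription factors, 7 feedback and stress effectors, 8 enzymes of amino acid synthesis and 12 tRNA synthetases. RNA-seq was done on 4 mouse melanoma lines, the parents MeVa2.1 and MeVa2.2 and the lines MeVa2.1.dOVA and MeVa2.2.dOVA, at 3 libraries for each. All of them are labelled wild type, untreated, and taken from skin as a subcutaneous tumour, and the series title describes MeVa2.1.dOVA as immune-refractory. What dOVA stands for is not written in the labels, which name no further allele or agent. Each dOVA line is compared with the line that shares its name, here called its parent from the name alone, and each group is 1 line. Nor do they say if the replicates came from separate cultures. The p-values therefore reflect the spread among these libraries alone, and that spread may be technical.

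In the integrated stress response, kinases that sense amino acid shortage, unfolded protein, haem deficiency or double-stranded RNA phosphorylate the initiation factor eIF2. General translation then falls while translation of Atf4 mRNA rises, and ATF4 protein pairs with C/EBP family members on promoter sequences called C/EBP-ATF response elements to switch on amino acid synthesis, amino acid transport, tRNA charging and its own feedback regulators. Because ATF4 is set largely at translation, its mRNA is not a measure of its activity, and RNA-seq reads the pathway through its targets. In melanoma the response is known from nutrient limitation and from switching between cell states.

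Promoter sequences are shown because the list is defined by a shared regulator. The core of the response element, TGATGNAA, was searched on both strands in the RefSeq promoters of build GRCm38.p6, which run from 250 bases before to 50 bases after each gene's start. Of the 26 members with an entry, 11 held it (42.3%), against 4.51% of 27025 genes. They were Atf3, Trib3, Chac1, Vldlr, Asns, Pycr1, Aars, Gars, Iars, Tars and Yars. Trib1, Cars, Lars, Mars, Nars and Wars had no entry. Sesn2 and Ddit4, which are described below for their levels, had an entry and no match. A match describes these letters and is not evidence of binding. The list was chosen around this regulator, so its higher share of matches cannot serve as a test, and the cause of that share was not tested. The 5 stretches below cover each role, with the matched bases in capitals and the gene's strand read 5′ to 3′.
Atf3: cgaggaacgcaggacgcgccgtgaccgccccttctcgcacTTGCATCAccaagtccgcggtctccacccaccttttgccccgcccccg
Chac1: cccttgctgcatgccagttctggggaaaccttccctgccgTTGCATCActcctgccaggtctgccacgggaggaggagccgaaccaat
Pycr1: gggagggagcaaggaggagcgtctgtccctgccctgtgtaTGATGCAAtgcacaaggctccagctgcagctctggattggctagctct
Gars: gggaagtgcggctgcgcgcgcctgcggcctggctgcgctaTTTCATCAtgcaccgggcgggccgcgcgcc
Tars: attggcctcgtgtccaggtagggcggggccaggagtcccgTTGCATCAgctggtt
On GRCm38.p6 they are chr1:191183396-191183483 on the minus strand (Atf3), chr2:119351009-119351096 on the plus strand (Chac1), chr11:120643804-120643891 on the minus strand (Pycr1), chr6:55037931-55038000 on the plus strand (Gars) and chr15:11399659-11399713 on the minus strand (Tars). The matches begin at positions -110, -193, -103, -30 and -15 from the RefSeq start, in that order. In GENCODE M21 the Chac1, Pycr1 and Gars stretches lie outside any gene. The Atf3 stretch lies in an intron of a longer Atf3 transcript, and 7 bases of the Tars stretch lie in its first exon. The same 8 letters, TTGCATCA, stand in the Atf3, Chac1 and Tars stretches, and Pycr1 has their reverse complement, TGATGCAA.

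Library totals ranged from 16181816 to 35627069 gene counts. Melanocyte genes gave little signal: Mitf lay between 8.84 and 24.1 CPM, the counts scaled to a library total of 1000000, and Tyr, Mlana and Sox10 were at or below 2.66 CPM in every library, while Dct and Tyrp1 reached 15.9 and 12.3 CPM in MeVa2.2 replicate 1. The sum of 10 fibroblast markers was 1622 to 6416 CPM and that of 19 immune cell markers 3.73 to 23.4 CPM. In bulk RNA, fewer cells of a type and less RNA per cell cannot be told apart. In MeVa2.2 replicate 3 the members lay lowest, 0.63 below their 12-library mean on the log2 scale, against -0.17 to 0.36 in the other libraries. That library also had the highest fibroblast sum, in which the collagen gene Col1a2 had the most counts. Values that it moves are given without it as well, beside the genes concerned and in the account of single libraries.

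Members differed widely in level per kilobase of exon, in CPM per kb averaged over the 4 lines. Nars, which charges tRNA with asparagine, was highest at 315, followed by Atf4 at 301 and Gars, the glycine enzyme, at 190.5. Psat1 (171), Atf5 (167), Asns (163) and Shmt2 (155) came next, so enzymes of serine, glycine and asparagine synthesis stood among the transcription factors. Pycr1, the last enzyme of proline synthesis, was lowest at 6.54, below Trib1 at 7.81 and Cebpb at 15.02. The length used counts every annotated exon base of a gene, from 1504 bases for Cebpb to 18102 for Eprs. The order of genes therefore depends on the annotation. These levels are a description, and no test was made between genes.

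The design gives 5 comparisons, fitted over all 12 libraries with edgeR's quasi-likelihood test and called at an adjusted p under 0.05, Benjamini-Hochberg adjusted over 13985 genes. Against MeVa2.1, MeVa2.1.dOVA had 0 of 32 members called, where 0.486% of all genes were called (2.6% with the replicate number as a block). At an unadjusted p under 0.05 there were 3 members, and DESeq2, which called 2.82% of all genes, called 1, Trib1. Against MeVa2.2, MeVa2.2.dOVA had 1 member called, Trib1, where 1.99% of all genes were (1.57% lower, as Trib1 was). DESeq2 called Trib1 and Sesn2 there and 6.96% of all genes. Between the parents 0 of 32 were called (1 at an unadjusted p under 0.05, 0 by DESeq2, which called 8.63% of all genes), where 4.48% of all genes were (9.51% with the block). MeVa2.1.dOVA and MeVa2.2.dOVA differed in 4 members, or 12.5% of the list, where 11.3% of all genes were called (22% with the block, which called the same 4 members). These were Trib1 (chromosome 15 of GRCm38, 59648350 to 59657099) and Mars, higher in MeVa2.1.dOVA, and Sesn2 (chromosome 4, 132492032 to 132510501) and Ddit4 (chromosome 10, 59949669 to 59951834), lower there, where 6.45% and 4.81% of all genes were called in those directions. The share of members called was therefore near the share of all genes in that comparison.

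The remaining comparison asks whether the dOVA lines differ from their parents by unequal amounts. It called 1 member, Trib1, where 0.0858% of all genes were called (0.0501% higher, as Trib1 was). DESeq2 called Trib1 and Ddit4 in it and 1.94% of all genes. The comparisons share libraries, so their values are given side by side and not as independent results.

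**Figure D1:**
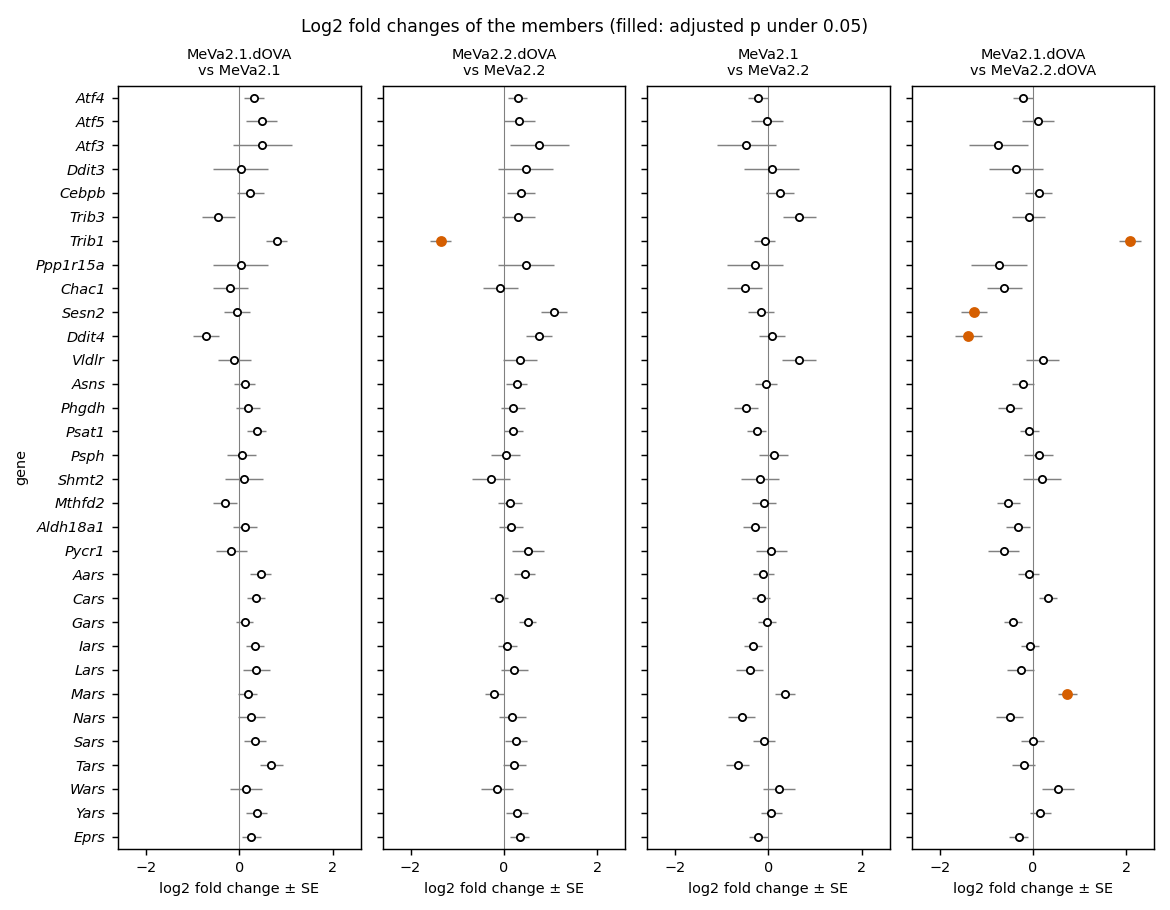
Log2 fold change ± SE of each of the 32 members (rows, by role) in the 4 comparisons between lines, positive meaning higher in the first-named line, with filled points for an adjusted p under 0.05. The filled points are Trib1 in MeVa2.2.dOVA against MeVa2.2 (-1.36), and Trib1 (2.08), Sesn2 (-1.27), Ddit4 (-1.39) and Mars (0.73) between the dOVA lines; the other points are open and most lie within 1 log2 unit of 0.

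The transcription factors come first. Atf4, the central factor, was at 564, 534 and 643 CPM in the 3 libraries of MeVa2.1 and at 617, 811 and 741 in MeVa2.1.dOVA. In MeVa2.2 it was at 639.7, 849 and 565 CPM and in MeVa2.2.dOVA at 839.7, 981 and 735. The libraries of each dOVA line overlapped those of its parent. The log2 fold change was 0.31 (SE 0.21, 95% interval -0.15 to 0.77) in the MeVa2.1 pair and 0.29 (SE 0.21, -0.16 to 0.75) in the MeVa2.2 pair, and neither was called (adjusted p = 0.634 and 0.51, edgeR).

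Atf5, a relative of ATF4 with a similar translational control, was at 279 ± 50.5 CPM in MeVa2.1 and 389 ± 145 in MeVa2.1.dOVA (SD, n = 3). The values were 289 ± 99.2 CPM for MeVa2.2 and 374 ± 129.6 for MeVa2.2.dOVA. Its highest library, MeVa2.1.dOVA replicate 2, stood at 544 CPM and its lowest, MeVa2.2 replicate 3, at 181. Cebpb, a C/EBP family partner, was the lowest of the factors per kb, with line means from 18.5 to 25.8 CPM. Neither was called in any comparison, and their line ranges overlapped in all 4.

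Atf3 and Ddit3, whose product CHOP drives the death arm of prolonged stress, were the most variable factors. Ddit3 was at 184, 279 and 128 CPM in MeVa2.1, 132, 257 and 220.1 in MeVa2.1.dOVA, 181, 335 and 54.4 in MeVa2.2, and 330.1, 337 and 129.98 in MeVa2.2.dOVA. Libraries of 1 line differed widely, and the lines overlapped in all 4 comparisons. The log2 fold change in the MeVa2.1 pair was 0.03 (SE 0.58), with an interval from -1.25 to 1.305, so a change of 2-fold either way lies within it. For both genes replicate 3 was the lowest library of MeVa2.1, MeVa2.2 and MeVa2.2.dOVA, and not of MeVa2.1.dOVA. Atf3 ran from 15.9 CPM in MeVa2.2 replicate 3 to 155 in MeVa2.2.dOVA replicate 2. Its largest log2 fold changes were 0.76 (SE 0.63, adjusted p = 0.576, edgeR) in the MeVa2.2 pair and -0.74 (SE 0.63, adjusted p = 0.479) between the dOVA lines. Without MeVa2.2 replicate 3 the MeVa2.2 pair gave 0.28 (SE 0.50) for Atf3 and 0.02 (SE 0.49) for Ddit3. All 5 factors had a positive estimate in both dOVA pairs, with medians of 0.31 and 0.37, against 0.0023 and -0.023 over all genes, and 0 of 5 were called in any comparison (0 at an unadjusted p under 0.05 and 0 by DESeq2). Without MeVa2.2 replicate 3 the second median was 0.16, and without MeVa2.1.dOVA replicate 2 the first was 0.15 with 4 of 5 positive.

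**Figure D2:**
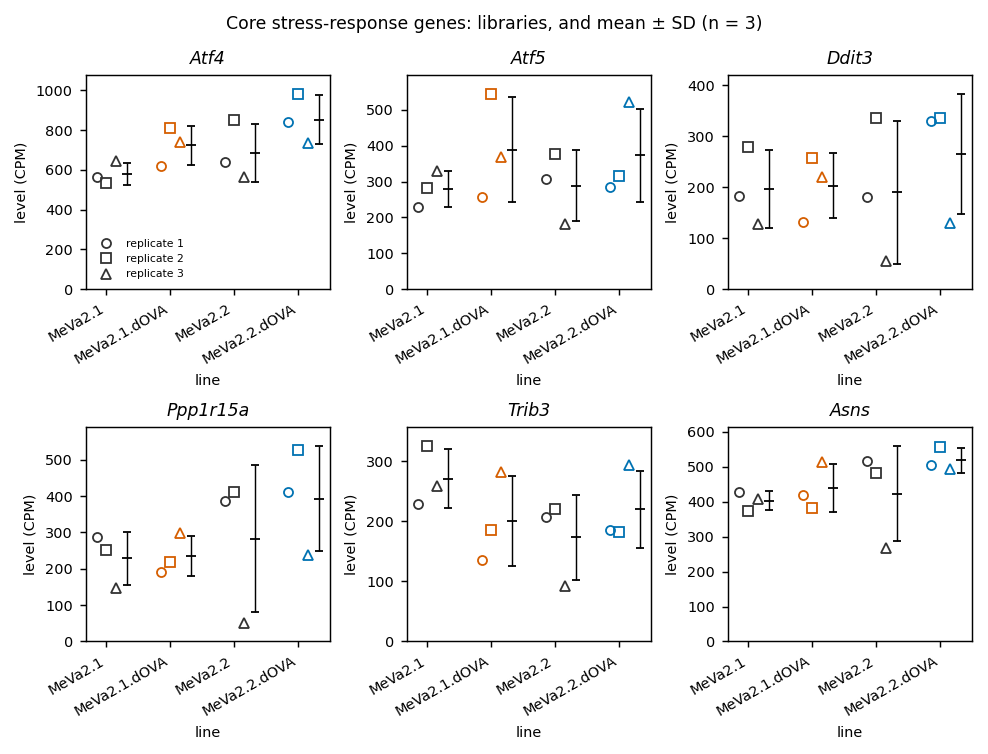
Levels (CPM, linear axis from 0) of Atf4, Atf5, Ddit3, Ppp1r15a, Trib3 and Asns in each library (symbols by replicate number), with the mean ± SD of each line (bars, n = 3). Every line's range overlaps its dOVA partner's, and MeVa2.2 replicate 3 is the lowest library of its line in all 6 genes, at 54.4 CPM for Ddit3 and 49.9 CPM for Ppp1r15a.

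Among the feedback and stress effectors, Trib1 differed most. Trib1 encodes a Tribbles pseudokinase, a scaffold that brings C/EBP factors to the COP1 ubiquitin ligase. It was at 54.3, 42.5 and 41.2 CPM in MeVa2.1, 78.3, 91.0 and 72.5 in MeVa2.1.dOVA, 37.9, 44.7 and 64.7 in MeVa2.2, and 22.3, 18.2 and 18.1 in MeVa2.2.dOVA. The parents overlapped. All MeVa2.1.dOVA libraries lay above every other library, and all MeVa2.2.dOVA libraries lay below every other. Between the dOVA lines Trib1 was 4.22-fold higher in MeVa2.1.dOVA (log2 2.08, SE 0.23, 95% interval of the fold 2.97 to 6.01, adjusted p = 2.73e-04, edgeR). This call held in 17 of 17 settings.

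Against its parent, Trib1 fell by 1.36 on the log2 scale in MeVa2.2.dOVA (SE 0.23, adjusted p = 0.0178, edgeR), a 2.56-fold lower level. The call was lost without MeVa2.2.dOVA replicate 2 (adjusted p = 0.0911). In the MeVa2.1 pair the estimate was 0.80 (SE 0.22, adjusted p = 0.191), which did not pass, although the libraries did not overlap. DESeq2 called this difference (0.79, adjusted p = 0.0440). The 2 dOVA differences were unequal by 2.16 (SE 0.32, 95% interval 1.46 to 2.86, adjusted p = 0.0390, edgeR). Leaving out any of 11 libraries ended that call, with adjusted p from 0.0506 to 0.140, and it remained without MeVa2.2 replicate 3 (adjusted p = 0.0490). The estimate stayed between 1.90 and 2.32 throughout.

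Trib3, the Tribbles member that ATF4 itself switches on and that feeds back on it, had a different pattern. It was at 229, 325 and 259 CPM in MeVa2.1, 135, 185 and 282 in MeVa2.1.dOVA, 207, 221 and 92.8 in MeVa2.2 and 185, 182 and 295 in MeVa2.2.dOVA. Only the parents did not overlap, with MeVa2.1 above MeVa2.2, and the estimate of 0.66 (SE 0.35, adjusted p = 0.37, edgeR) did not pass. Without MeVa2.2 replicate 3 it was 0.36 (SE 0.32). In the dOVA pairs the estimates were -0.45 (SE 0.35) and 0.31 (SE 0.35), the latter 0.01 (SE 0.32) without that library, and neither passed the test.

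Sesn2 and Ddit4 both restrain mTORC1, the growth kinase that responds to amino acids. Sesn2, which encodes the leucine-binding protein Sestrin2, was at 102, 108 and 133 CPM in MeVa2.1, 80.3, 115 and 139 in MeVa2.1.dOVA, and 122, 167 and 96.3 in MeVa2.2. In MeVa2.2.dOVA it was at 248, 349.6 and 219 CPM, above all other libraries. It was 2.41-fold lower in MeVa2.1.dOVA than in MeVa2.2.dOVA (log2 -1.27, SE 0.28, adjusted p = 0.0151, edgeR). This call was lost without MeVa2.1.dOVA replicate 1 (adjusted p = 0.0675) or MeVa2.2.dOVA replicate 2 (0.0700). Against MeVa2.2 the estimate was 1.07 (SE 0.28, adjusted p = 0.0831), which did not pass in the main edgeR fit. It passed in 4 of 17 settings. These were edgeR with the replicate block (adjusted p = 0.0263), without the low-count filter (0.0215) and without MeVa2.2 replicate 2 (0.0410), and DESeq2 (1.07, adjusted p = 0.0127). In the MeVa2.1 pair it was -0.04 (SE 0.28, 95% interval -0.65 to 0.57).

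Ddit4, which encodes REDD1, was at 34.7, 30.7 and 36.3 CPM in MeVa2.1 and 16.4, 21.3 and 24.6 in MeVa2.1.dOVA. It was at 19.9, 31.7 and 45.1 CPM in MeVa2.2 and 65.4, 53.1 and 48.1 in MeVa2.2.dOVA. Each dOVA line was separate from its parent, on opposite sides. Between the dOVA lines it was 2.61-fold lower in MeVa2.1.dOVA (log2 -1.39, SE 0.28, adjusted p = 0.00929, edgeR), a call lost without MeVa2.1.dOVA replicate 1 (adjusted p = 0.0517). The estimates against the parents, -0.71 (SE 0.28, adjusted p = 0.37) and 0.76 (SE 0.28, adjusted p = 0.203), did not pass. Their difference, -1.47 (SE 0.39, adjusted p = 0.232), did not pass with edgeR, while DESeq2 gave -1.49 with an adjusted p of 0.0327. In MeVa2.1.dOVA against MeVa2.2.dOVA, Sesn2 and Ddit4 thus lay opposite in direction to Trib1.

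**Figure D3:**
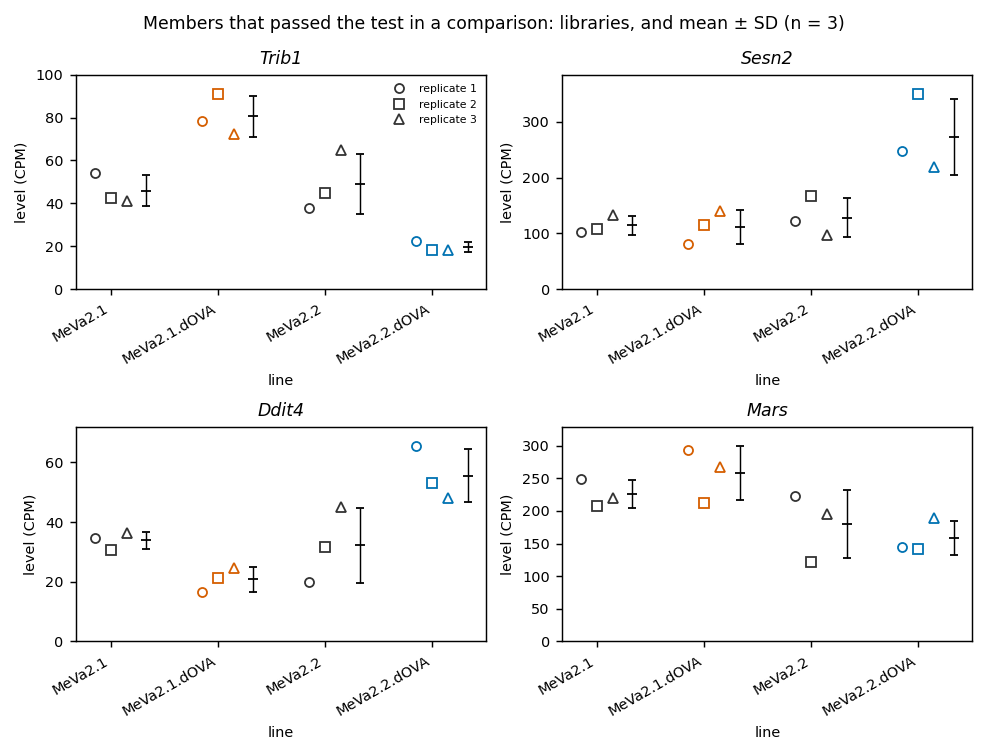
Levels (CPM, linear axis from 0) of the 4 members that passed the test in a comparison, Trib1, Sesn2, Ddit4 and Mars, in each library (symbols by replicate number), with the mean ± SD of each line (bars, n = 3). Trib1 is highest in MeVa2.1.dOVA (80.6 ± 9.44 CPM) and lowest in MeVa2.2.dOVA (19.5 ± 2.38), while Sesn2 (272 ± 68.5) and Ddit4 (55.5 ± 8.89) are highest in MeVa2.2.dOVA.

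Ppp1r15a, whose product GADD34 brings the phosphatase that reverses eIF2 phosphorylation, was at 287, 251 and 147 CPM in MeVa2.1 and 192, 218 and 297 in MeVa2.1.dOVA. In MeVa2.2 it was at 386, 411 and 49.9 CPM and in MeVa2.2.dOVA at 412, 526 and 239. Replicate 3 of MeVa2.2 was far below its line. Replicate 3 was also the lowest library of MeVa2.1 and of MeVa2.2.dOVA, while in MeVa2.1.dOVA it was the highest. The estimates were 0.03 (SE 0.60) and 0.47 (SE 0.60) in the dOVA pairs, -0.29 (SE 0.60) between the parents and -0.72 (SE 0.60) between the dOVA lines. Each interval spans more than 2 log2 units, and a change of 2-fold in either direction lies within 2 of the 4. Without MeVa2.2 replicate 3 the MeVa2.2 pair gave -0.03 (SE 0.37) and the parents -0.78 (SE 0.37, adjusted p = 0.292).

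Chac1, which degrades glutathione and is among the ATF4 and CHOP targets, was at 71.6 ± 13.8 CPM in MeVa2.1 and 63.4 ± 33.2 in MeVa2.1.dOVA. MeVa2.2 had 103 ± 11.4 CPM and MeVa2.2.dOVA 98.1 ± 26.8 (SD, n = 3). The parents did not overlap, with MeVa2.1 lower (-0.51, SE 0.37, adjusted p = 0.546, edgeR). Its lowest library was MeVa2.1.dOVA replicate 2 at 26.0 CPM. Vldlr, a lipoprotein receptor, had line means from 185 to 289 CPM and overlapped in all comparisons. Its estimate between the parents was 0.66 (SE 0.36, adjusted p = 0.389), and 0.29 (SE 0.23) without MeVa2.2 replicate 3. Of the 7 effectors, 2 had a positive estimate in the MeVa2.1 pair (median -0.11) and 5 in the MeVa2.2 pair (median 0.35, or -0.02 with 3 of 7 positive without MeVa2.2 replicate 3).

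The 8 amino acid synthesis enzymes had 0 calls in the 5 comparisons (edgeR), 0 at an unadjusted p under 0.05 and 0 by DESeq2. Asns, which makes asparagine and is a standard reporter of ATF4, was at 428, 374 and 407 CPM in MeVa2.1 and 420.0, 383 and 514 in MeVa2.1.dOVA. In MeVa2.2 it was at 518, 483 and 268 CPM and in MeVa2.2.dOVA at 504, 558 and 493. The lines overlapped in all comparisons, and MeVa2.2 replicate 3 was below every other library. The estimates were 0.11 (SE 0.23, 95% interval -0.39 to 0.61) in the MeVa2.1 pair and 0.27 (SE 0.23, -0.23 to 0.77) in the MeVa2.2 pair, the latter 0.03 (SE 0.18) without that library.

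Serine synthesis runs through Phgdh, Psat1 and Psph. Phgdh, the entry enzyme, was at 160.1, 108 and 169 CPM in MeVa2.1, 150.0, 140.2 and 210.0 in MeVa2.1.dOVA, 218, 256 and 137 in MeVa2.2 and 218, 266 and 229 in MeVa2.2.dOVA. The dOVA lines did not overlap, with MeVa2.1.dOVA lower (-0.49, SE 0.26, adjusted p = 0.246, edgeR). Psat1 had line means from 594 to 828 CPM, and MeVa2.2.dOVA lay wholly above MeVa2.2 with an estimate of 0.20 (SE 0.20). Psph had line means from 103 to 115 CPM and overlapped in every comparison.

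Shmt2 and Mthfd2 carry serine-derived carbon into mitochondrial folate metabolism. Shmt2 was at 548, 299 and 526 CPM in MeVa2.1, 539, 277 and 669 in MeVa2.1.dOVA, 821, 303 and 455 in MeVa2.2 and 346, 318 and 673 in MeVa2.2.dOVA. Replicate 2 was the lowest library of every line, so the lines overlapped widely. Mthfd2 had line means of 339.8, 278, 366 and 406 CPM for MeVa2.1, its dOVA line, MeVa2.2 and its dOVA line. MeVa2.1.dOVA lay wholly below MeVa2.2.dOVA (-0.53, SE 0.25, adjusted p = 0.205, edgeR), with replicate 2 lowest at 167 CPM.

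Aldh18a1 and Pycr1 make proline. Aldh18a1 had line means of 248, 273, 308 and 349 CPM in the same order and Pycr1 24.02, 21.5, 23.5 and 33.9. Pycr1 had the larger spread, from 14.8 CPM in MeVa2.2 replicate 3 to 41.1 in MeVa2.2.dOVA replicate 2. Over the 8 enzymes the median estimate was 0.11 in the MeVa2.1 pair and 0.18 in the MeVa2.2 pair, against 0.0023 and -0.023 over all genes. These medians turned on single libraries: -0.16 with 1 of 8 positive in the MeVa2.1 pair without MeVa2.1.dOVA replicate 3, and -0.0066 with 4 of 8 positive in the MeVa2.2 pair without MeVa2.2 replicate 3. Between the dOVA lines the median was -0.27, with 6 of 8 negative.

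The 12 tRNA synthetases all had a positive estimate in MeVa2.1.dOVA against MeVa2.1. Their median was 0.34, against 0.0023 over all genes, and 0 of 12 were called (edgeR; 1 at an unadjusted p under 0.05, 0 by DESeq2). On leaving out 1 library, 11 or 12 were positive and the median ran from 0.27 to 0.36. In the same comparison 6 of 6 mitochondrially encoded mRNAs had a negative estimate (median -0.36, 0 called), as had 8 of 10 fibroblast markers (median -1.74, Dcn called), and their part in the synthetase values was not tested. Tars, the threonine enzyme, had the largest at 0.68 (SE 0.25, 95% interval 0.14 to 1.23, adjusted p = 0.328, edgeR), from 403, 268 and 374 CPM in MeVa2.1 and 573, 431 and 687 in MeVa2.1.dOVA. Its lines did not overlap. Aars, the alanine enzyme, was at 726, 663 and 746 CPM against 848, 1172 and 925 (0.46, SE 0.23, adjusted p = 0.5). Its lines did not overlap either.

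Counting all members, 8 of 32 lay wholly higher in MeVa2.1.dOVA than in its parent, where 10.7% of all genes did, and 1 lay wholly lower, where 10.4% did. The 8 were Trib1 and the synthetases Aars, Cars, Lars, Nars, Sars, Tars and Yars, and the 1 was Ddit4. Sars, the serine enzyme, was at 543 ± 36.7 CPM against 691 ± 34.2 (SD, n = 3), with an estimate of 0.34 (SE 0.24). Lars, the leucine enzyme, was at 460.3 ± 8.75 CPM against 595 ± 88.2, and Yars, the tyrosine enzyme, at 249.7 ± 11.8 against 325 ± 58.8. The smallest synthetase estimates were Gars at 0.11 (SE 0.19) and Wars at 0.15 (SE 0.34), and both overlapped.

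In MeVa2.2.dOVA against MeVa2.2, 9 of 12 synthetases had a positive estimate (median 0.22) and 0 were called (edgeR; 1 at an unadjusted p under 0.05, 0 by DESeq2). Without MeVa2.2 replicate 3, 5 of 12 were positive (median -0.04). Here 9 of 10 fibroblast markers had a negative estimate (median -1.60; Dcn, Pdgfra and Thy1 called), and 6 of 6 mitochondrially encoded mRNAs did (median -0.11). Their part was not tested. Gars was at 632, 486 and 479 CPM in MeVa2.2 and 682, 751 and 879.9 in MeVa2.2.dOVA (0.51, SE 0.19, adjusted p = 0.205, edgeR). Aars was at 903, 897 and 525 CPM against 1146, 1138 and 928 (0.45, SE 0.23, adjusted p = 0.36), and the estimate was 0.23 (SE 0.19) without MeVa2.2 replicate 3. Neither gene's lines overlapped, and neither difference passed the test. Among all members 5 lay wholly higher in MeVa2.2.dOVA (Sesn2, Ddit4, Psat1, Aars and Gars), where 9.83% of all genes did, and 1 wholly lower (Trib1), where 7.49% did.

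Between the parents, 9 of 12 synthetases had a negative estimate, with a median of -0.13 against -0.019 over all genes. It was -0.34 without MeVa2.2 replicate 3 and -0.005 without MeVa2.2 replicate 1. Tars was lower in all 3 MeVa2.1 libraries than in any of MeVa2.2 (403, 268 and 374 against 657, 592 and 416 CPM), with an estimate of -0.66 (SE 0.25, adjusted p = 0.184, edgeR). Nars was at 1063, 1023 and 952 CPM in MeVa2.1 and 1894, 1834 and 831 in MeVa2.2. Its estimate of -0.57 (SE 0.29, adjusted p = 0.347) did not pass with all libraries, and without MeVa2.2 replicate 3 it was -0.86 (adjusted p = 0.0496). Of all members, 1 lay wholly higher in MeVa2.1 (Trib3), where 12% of all genes did, and 2 wholly lower (Chac1 and Tars), where 11.4% did.

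Mars, the methionine enzyme, was the 1 synthetase called. It was at 249, 208 and 219.9 CPM in MeVa2.1, 293, 213 and 268 in MeVa2.1.dOVA, 222, 122 and 195 in MeVa2.2 and 145, 142 and 189 in MeVa2.2.dOVA. Every MeVa2.1.dOVA library lay above every MeVa2.2.dOVA library, and the difference was 1.66-fold (log2 0.73, SE 0.21, 95% interval of the fold 1.21 to 2.29, adjusted p = 0.0441, edgeR). This call was near the threshold: it was lost without any 1 of 8 libraries (adjusted p from 0.0521 to 0.163) and without the low-count filter (0.0592). Mars lies on chromosome 10 of GRCm38 from 127296221 to 127311786 on the minus strand, and its last 68 bases overlap the end of Ddit3 (127290774 to 127296288, plus strand). Whether the counting used strand is not given in the sources used here, so reads in that overlap cannot be assigned with certainty. The same limit holds for 6 other members that overlap a coding gene on the opposite strand, namely Shmt2, Atf5, Cebpb, Ppp1r15a, Wars and Yars.

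Between the dOVA lines 3 members lay wholly higher in MeVa2.1.dOVA (Trib1, Mars and Wars), where 14% of all genes did, and 7 wholly lower (Sesn2, Ddit4, Phgdh, Mthfd2, Gars, Nars and Eprs), where 16% did. Wars, the tryptophan enzyme, is also known as an interferon-induced gene. It was at 300.3, 433 and 385 CPM in MeVa2.1.dOVA and 271, 285 and 236 in MeVa2.2.dOVA (0.53, SE 0.34, adjusted p = 0.351, edgeR). Of 18 interferon-stimulated genes, 14 were called lower in MeVa2.1.dOVA and 0 higher, with summed levels of 101 to 322 CPM against 958 to 3416. Wars thus lay on the other side from that list.

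Nars was at 1068, 1370 and 1200 CPM in MeVa2.1.dOVA and 1801, 2020 and 1398 in MeVa2.2.dOVA (-0.50, SE 0.29, adjusted p = 0.294, edgeR). Eprs, which charges tRNA with both glutamate and proline, was at 699, 732 and 839 CPM against 1002, 1010 and 839, its lines separated by less than 1 CPM. Gars was at 573, 451 and 653 CPM against 682, 751 and 879.9 (-0.43, SE 0.19, 95% interval -0.84 to -0.02, adjusted p = 0.164), with lines that did not overlap. The other 7 synthetases overlapped. Their estimates were -0.26 (SE 0.29) for Lars, -0.20 (SE 0.25) for Tars, -0.10 (SE 0.23) for Aars, -0.06 (SE 0.20) for Iars, the isoleucine enzyme, -0.01 (SE 0.24) for Sars, 0.16 (SE 0.23) for Yars and 0.32 (SE 0.19) for Cars, the cysteine enzyme.

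Across libraries, the members moved together most in MeVa2.2 replicate 3. It was the lowest library of its line for 28 of 32 members, where it was so for 33.5% of all genes, and the lowest of all 12 libraries for 17, where it was so for 10.4%. By role this held within the line for 5 of 5 factors, 5 of 7 effectors, 7 of 8 synthesis enzymes and 11 of 12 synthetases. The 4 exceptions were Trib1 and Ddit4, lowest in replicate 1, and Shmt2 and Mars, lowest in replicate 2. As a mean over each role the drop was deepest in the transcription factors, at -1.16 below their 12-library mean. It was -0.62 in the effectors, -0.54 in the synthetases and -0.43 in the synthesis enzymes. Genes of a role differed. The log2 SD over the MeVa2.2 libraries was 1.55 for Atf3 and 1.35 for Ddit3, against 0.33 for Atf4, 0.56 for Atf5 and 0.51 for Cebpb. In the effector Ppp1r15a it was 1.73. At the other end, MeVa2.2.dOVA replicate 2 was the highest of all 12 libraries for 15 of 32 members, where it was so for 17.8% of all genes.

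**Figure D4:**
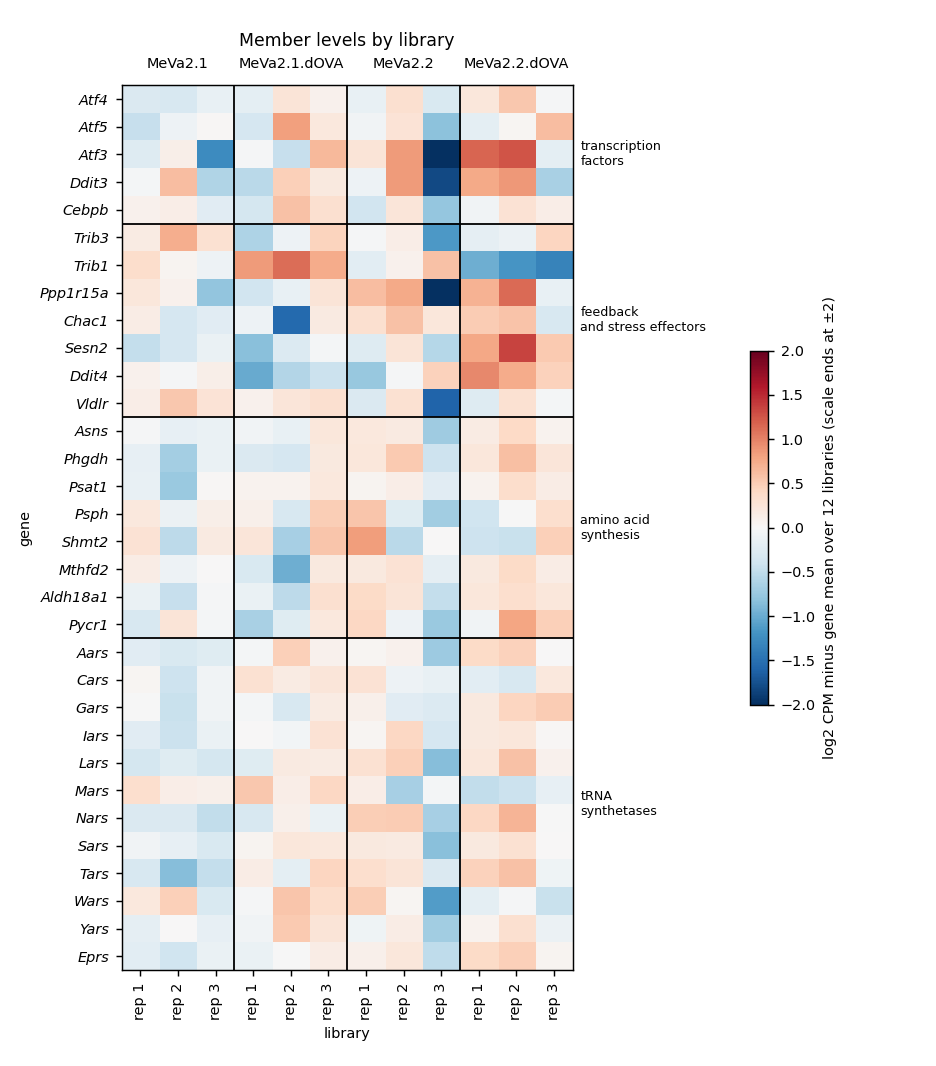
Log2 CPM of each member (rows, by role) in each library (columns, by line) minus the gene's mean over the 12 libraries, with colours ending at ±2. MeVa2.2 replicate 3 is blue in most rows, with a mean of -0.63 over the 32 members, and Trib1 stands out as red in the 3 MeVa2.1.dOVA libraries and blue in the 3 of MeVa2.2.dOVA.

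Single libraries set the size and, in places, the sign of the list values. In the MeVa2.2 pair 26 of 32 members had a positive estimate with a median of 0.26. Without MeVa2.2 replicate 3, 17 did with a median of 0.0089, and without MeVa2.2 replicate 2 the median was 0.43. In the MeVa2.1 pair 25 of 32 were positive with a median of 0.18. Without MeVa2.1.dOVA replicate 3, the highest of its line for 19 of 32 members (30.1% of all genes), 17 were positive with a median of 0.12. Without MeVa2.1.dOVA replicate 1 the median was 0.28.

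Between the parents 22 of 32 were negative, with a median of -0.10. This was 26 with a median of -0.30 without MeVa2.2 replicate 3, and 15 with a median of 0.01 without MeVa2.2 replicate 2, so the direction rested on that library. Between the dOVA lines 22 of 32 were negative with a median of -0.21, which ran from -0.34 without MeVa2.1.dOVA replicate 3 to -0.096 without MeVa2.2.dOVA replicate 2. The difference of the dOVA differences had 16 of 32 positive (median -0.00067), with 24 (median 0.21) without MeVa2.2 replicate 3 and 9 (median -0.14) without MeVa2.2 replicate 2.

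In MeVa2.2 replicate 3 the 17 genes of the IRE1 and ATF6 arms of the unfolded protein response lay highest, 0.57 above their 12-library mean, against -0.33 to 0.22 elsewhere. Its fibroblast marker sum was 6416 CPM, against 4503 and 2886 in the other libraries of MeVa2.2. MeVa2.2.dOVA replicate 3 had a sum of 6278 CPM with the members at 0.05 above their 12-library mean. Within its own line it was the lowest library for 20 of 32 members, where it was so for 40.7% of all genes. For 7 members it was the highest of its line, where it was so for 43.2% of all genes. The collagen gene Col1a2 had the most counts of these markers in both libraries, 129473 in MeVa2.2.dOVA replicate 3 and 103732 in MeVa2.2 replicate 3. Other markers differed between them in the same order: Pdgfra had 367 against 5253 counts and Thy1 4 against 783. Pdgfrb went the other way, at 4932 against 3658. Similar sums thus do not mean similar marker levels. The part of these genes in the members' levels was not tested.

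Replicates spread more in some members than in others. The within-line SD on the log2 scale was 0.99 for Atf3, 0.98 for Ppp1r15a and 0.89 for Ddit3, the highest of the 32, and 0.21 for Gars, the lowest. The median was 0.35 over the 32 members and 0.38 over all genes tested, or 0.31 over genes whose mean log2 CPM was 3 or more. In MeVa2.2 the median over members was 0.50, against 0.38 over all genes.

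Other genes of the pathway gave few calls. Of 15 genes for eIF2, its exchange factor eIF2B, its kinases and their regulators, 1 was called between the dOVA lines and 0 in the other 4 comparisons by edgeR. DESeq2 made 3 calls over the 5 comparisons, and 15 values had an unadjusted p under 0.05. The gene was Eif2ak2, the kinase PKR that responds to double-stranded RNA and is itself induced by interferon. Eif2ak2 was at 30.8, 26.2 and 27.3 CPM in MeVa2.1.dOVA and 104, 105 and 266 in MeVa2.2.dOVA (-2.44, SE 0.37, adjusted p = 0.00183, edgeR). With the block 2 eIF2B subunits were also called there, Eif2b5 at 0.41 (SE 0.11, adjusted p = 0.0291) and Eif2b4 at 0.53 (SE 0.17, adjusted p = 0.0438).

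Of 25 other ATF4 targets, 2 were called lower in MeVa2.1.dOVA than in MeVa2.2.dOVA and 0 higher. Slc7a11, the cystine importer, was at 85.8, 89.9 and 79.9 CPM against 617, 825 and 202 (-2.68, SE 0.53, adjusted p = 0.00765, edgeR). Slc38a2, the neutral amino acid transporter SNAT2, was at 323, 293 and 366 CPM against 568, 659 and 705 (-0.95, SE 0.18, adjusted p = 0.00681). Both sets of libraries were separate. Slc38a2 was lower in MeVa2.1 than in MeVa2.2 as well (-1.01, SE 0.18, adjusted p = 0.00926), and the other 3 comparisons had 0 calls by edgeR. DESeq2 made 7 calls in this list over the 5 comparisons, and 14 values had an unadjusted p under 0.05. With the block, 6 of the 25 were called between the dOVA lines, 2 higher (Gdf15 and Nupr1) and 4 lower (Fgf21 and Jdp2 beside the transporters), and Gdf15, a secreted stress cytokine, was called lower in MeVa2.1.dOVA than in its parent (-1.50, SE 0.33, adjusted p = 0.0439). In MeVa2.2.dOVA against MeVa2.2, DESeq2 called Gdf15 lower as well (-2.86, SE 0.75, adjusted p = 0.00468) and Slc7a11 higher (1.58, SE 0.51, adjusted p = 0.0322), and edgeR without the block called neither.

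The 11 other cytosolic synthetases and complex scaffold genes had 0 calls in the 5 comparisons, and so had the 17 mitochondrial synthetases (edgeR). DESeq2 made 0 calls in either list, and 4 and 9 values had an unadjusted p under 0.05. With the block, 1 gene of the cytosolic list, the scaffold gene Aimp2, was called between the parents. In the MeVa2.1 pair 10 of the 11 cytosolic genes had a positive estimate with a median of 0.33, close in size to the 0.34 of the 12 members, and in the MeVa2.2 pair 5 of 11 did with a median of -0.06. The mitochondrial enzymes had medians of 0.10 and -0.13. Of the 17 unfolded protein response genes, Ern1, which encodes the sensor IRE1, was called lower in MeVa2.1.dOVA than in MeVa2.2.dOVA (-2.07, SE 0.54, adjusted p = 0.0319, edgeR), and 0 were called elsewhere by that fit (13 values at an unadjusted p under 0.05 over the 5 comparisons, 1 call by DESeq2). With the block Ern1 was also called lower in MeVa2.1 than in MeVa2.2 (-1.07, SE 0.27, adjusted p = 0.0369).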

How the data were processed

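The deposited tables hold whole-number read counts per Ensembl gene for each library. Per the submitters' processing notes, the tools were STAR 2.6.0c, HTSeq 0.10.0 and DESeq2 1.30.1 with genome GRCm38, without their roles or parameters. Tally lines for unassigned reads, 35.8 to 40.0% of each table, were left out of totals. The members and the gene lists were chosen with earlier results of these data known. Counts were fitted in R 4.3.3 with edgeR 4.0.16 (filterByExpr, TMM, 1 mean per line over 12 libraries, quasi-likelihood test, Benjamini-Hochberg adjustment over 13985 genes), with 8 residual and 3.54 prior degrees of freedom. The procedure was tested on simulated data. Standard errors are the size of the log2 fold change over the root of F, so they restate the test. CPM are counts scaled to a gene total of 1000000. Named genes were all members, and of other lists those called and the largest changes.

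Alternatives were DESeq2 size factors, no low-count filter, DESeq2 1.42.0, the replicate number as a block, and leaving out each library, 17 settings with the one reported. Replicate numbers come from the labels. Same-numbered libraries deviated together in the MeVa2.1 pair (r = 0.503, 0.488 and 0.534 over genes) and between the parents (0.429, 0.405 and 0.328). Between the dOVA lines they correlated at 0.105, 0.516 and 0.416, and replicate 1 did not correlate best with its own number. In these comparisons the block changed no call of a member, and its calls in other lists are given only in part. Members at an unadjusted p under 0.05 went from 3 to 5 in the MeVa2.1 pair and from 1 to 3 between the parents. With the block 4 fibroblast markers were called lower in the MeVa2.1 pair. Between the dOVA lines 15 interferon-stimulated genes were called lower with it. Calls with the block among the mitochondrial synthetases are not reported here.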

Additional observations from a re-analysis of the deposited data

Results flagged for a closer look

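Trib1 is listed because its dOVA difference was not equal in the 2 origins. The log2 difference between MeVa2.1.dOVA and MeVa2.1 exceeded that between MeVa2.2.dOVA and MeVa2.2 by 2.16 (SE 0.32, adjusted p = 0.0390, edgeR's test of the difference itself), with all 3 libraries higher than the parent in the first pair and all 3 lower in the second.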

How the results depend on the processing

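The alternatives were tallied for 30 gene values, those called or largest in a comparison. Of their 480 repeats 448 kept their direction and side of the threshold, 24 lost a call, 7 gained one and 1 turned. Most of the 30 were not called in the main fit, so most of the 448 were values that stayed uncalled. Between the dOVA lines the calls held in 17 of 17 settings for Trib1, 16 for Ddit4, 15 for Sesn2 and 8 for Mars. The Trib1 call held in 16 in the MeVa2.2 pair and in 6 for the difference. Over all 160 values of the 32 members in the 5 comparisons, 70 changed sign on leaving out at least 1 of the libraries and 4 under the other alternatives, the largest of them at 0.47 in size with all libraries. The value that turned among the 30 was Shmt2 in the MeVa2.2 pair, at -0.27 with all libraries and from -0.66 to 0.18 when 1 library was left out (0.18 without MeVa2.2 replicate 1). The number of all genes called moved most. In the MeVa2.1 pair it was 68, with 272 without the filter, 394 by DESeq2 and 1 to 83 with 1 library left out. In the MeVa2.2 pair it was 278, with 729, 974 and 20 to 447. Between the parents it was 627, with 969, 1207 and 279 to 775. Between the dOVA lines it was 1574, with 2428 by DESeq2 and 796 to 2578. For the difference of the dOVA differences it was 12, with 161, 272 and 0 to 13. The cause was not tested.

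Members called moved from 0 to 1 by DESeq2 in the MeVa2.1 pair. In the MeVa2.2 pair they moved from 1 to 2 without the filter and to 2 by DESeq2, with 0 to 2 on leaving out 1 library. Between the parents they ran from 0 to 1, between the dOVA lines from 1 to 4, and for the difference from 0 to 1, with 2 by DESeq2.

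With the replicate block, the genes called were 364 in the MeVa2.1 pair, 1330 between the parents and 3079 between the dOVA lines. In the MeVa2.2 pair same-numbered libraries correlated at 0.0815, 0.640 and 0.521. Replicates 2 and 3 correlated best with their own number and replicate 1 did not, so the number pairs only some of these libraries. The block there gave 1084 genes and 2 members (Trib1, and Sesn2 with an adjusted p of 0.0263), and 118 genes for the difference. It changed no other call of a member.

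Depth did not leave any member untested, but 3 libraries a line left wide intervals for Atf3, Ddit3 and Ppp1r15a. Trib1 in the difference and Mars between the dOVA lines lay close to the threshold. Counting strand, the separateness of cultures and the meaning of dOVA are not given in the sources used here.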
